A study of Rattus norvegicus with 10 samples.

Results

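A set of 8 genes controlled by the fatty acid receptor PPAR-alpha was followed through the livers of 10 male rats of the outbred Sprague-Dawley strain. The genes were Cyp4a1, Cpt1a, Pdk4, Ehhadh, Acot1, Angptl4, Vnn1 and Eci2. They were taken by name, with every probe set that the platform annotation gives to 1 of them alone. This gave 10 probe sets of 31042 tested, or 8 of 14217 named genes, with 2 probe sets each for Cpt1a and Pdk4. A probe set shared by Eci2 with Eci3 and another shared by Acot1 with Acot2 were left out. The study compared 5 control rats with 5 rats exposed for a short term to effluent of factories making bulk drugs. The labels give no age, dose, route or length of exposure, and describe the controls only as control. Total RNA of each liver was hybridised to an Affymetrix 3′ expression array, 1 array per animal, so the spread between samples is that between animals.

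PPAR-alpha is a nuclear receptor of hepatocytes that binds fatty acids and fibrate drugs. Together with its partner RXR it switches on genes that take up, activate and burn fatty acids, above all during fasting, when the liver turns fat into ketone bodies for other tissues. Rat liver is known for a strong response of these genes to drugs that activate the receptor. The members cover several steps of that programme. Cpt1a lets long-chain fatty acids into mitochondria, Cyp4a1 oxidises their far end, Ehhadh and Eci2 work in beta-oxidation, and Pdk4 holds back the use of glucose. None of the 8 is itself an enzyme of ketone body synthesis, so that step is described below from Bdh1 and Acat1.

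Exposed and control livers did not differ in any of the 8 genes by the test used, and the groups overlapped on all 10 probe sets. What the genes showed was a spread between animals of the same group. By the brighter probe set of each gene, control animal 5 had the highest value of all animals for 7 of the 8 genes. Control animal 2 had the lowest for 4, with Acot1, near the bottom of the scale, among them. Over the whole array, control animal 5 was highest for 12.3% and control animal 2 lowest for 8.34%. On the dimmer probe set of Pdk4, control animal 5 was not the highest. The highest and lowest liver stood 3.35-fold apart for Angptl4, 3.18-fold for Cyp4a1 and 2.62-fold for Vnn1. In bulk liver, more RNA per hepatocyte and more hepatocytes cannot be told apart.

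**Figure D1:**
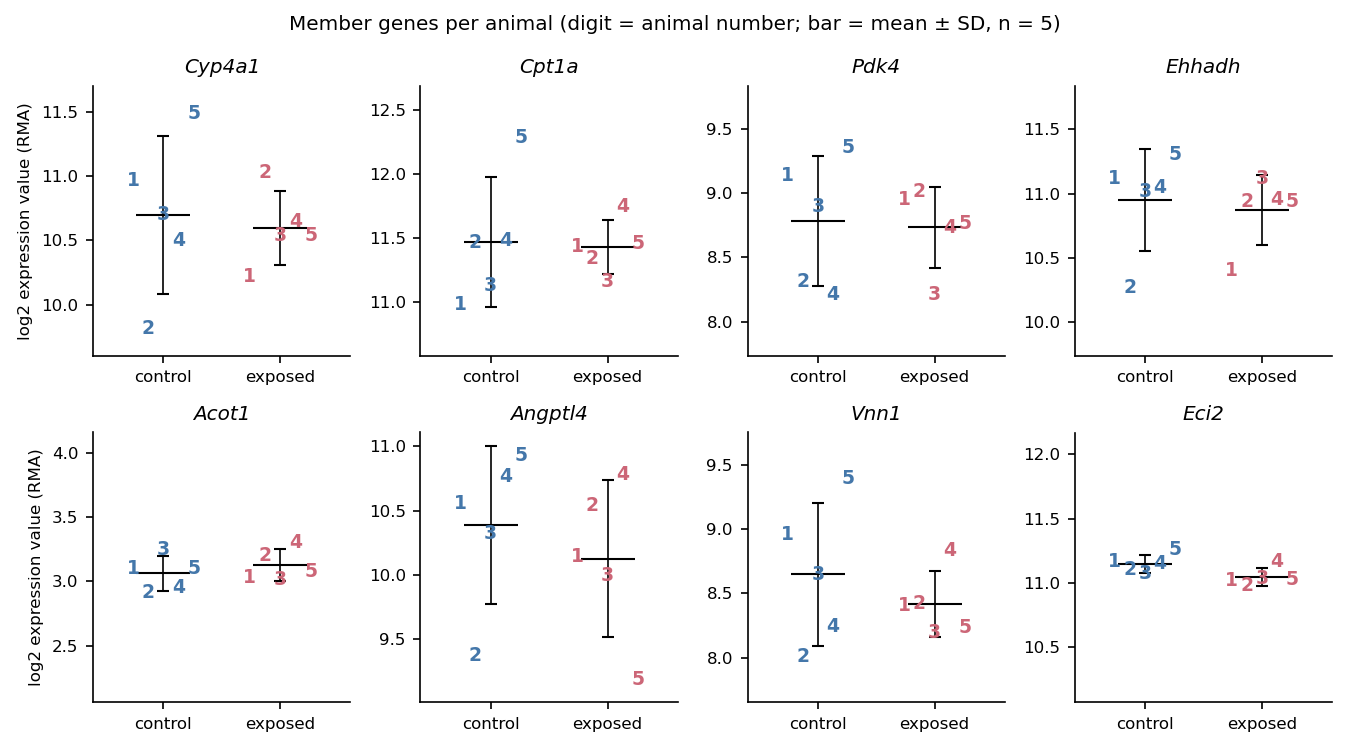
Log2 expression value (vertical axis, each panel spanning the same range) of the 8 genes in control (blue) and exposed (red) rats, each by the brighter probe set where there are several. Digits are animal numbers, and bars show the mean ± SD of 5 animals. Control animal 5 is at the top for 7 genes, control animal 2 is at the bottom for Cyp4a1, Ehhadh, Acot1 and Vnn1, and the groups overlap in every panel.

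The genes that oxidise fatty acids or carry them into mitochondria come first. Cyp4a1 is a cytochrome P450 of the endoplasmic reticulum that hydroxylates the omega end of fatty acids. Its log2 values in control animals 1 to 5 were 10.97, 9.82, 10.70, 10.50 and 11.49. In exposed animals 1 to 5 they were 10.22, 11.02, 10.54, 10.65 and 10.53. The exposed livers thus fell inside the range of the controls, whose highest and lowest animals were 5 and 2. The means were 10.69 ± 0.61 in controls and 10.59 ± 0.29 in exposed rats (SD, n = 5 each).

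Ehhadh codes for the bifunctional enzyme that carries out the middle steps of beta-oxidation in peroxisomes. Control animals 1 to 5 read 11.12, 10.27, 11.02, 11.04 and 11.30. Exposed animals 1 to 5 read 10.40, 10.94, 11.12, 10.96 and 10.94. In each group a single animal was low, control animal 2 and exposed animal 1, and the other 8 livers lay between 10.94 and 11.30. The difference of exposed minus control was -0.08 ± 0.18 (SE) on the log2 scale.

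Eci2, an enoyl-CoA isomerase that prepares unsaturated fatty acids for oxidation, had a high level and varied little. Control animals 1 to 5 read 11.16, 11.10, 11.07, 11.15 and 11.26, and exposed animals 1 to 5 read 11.02, 10.98, 11.03, 11.16 and 11.03. Its SD within groups, 0.07, lay at the 6.70th percentile of all probe sets. With this narrow spread, Eci2 had the smallest p of the members, an unadjusted limma p of 0.104. It differed by -0.10 ± 0.06 (SE), with a 95% interval of -0.23 to 0.02, and 4 of 5 exposed animals lay below the lowest control. Exposed animal 4, at 11.16, lay among the controls.

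Cpt1a is the carnitine palmitoyltransferase of the outer mitochondrial membrane and the main control point for burning long-chain fatty acids. On the brighter of its probe sets, control animals 1 to 5 read 10.98, 11.46, 11.13, 11.48 and 12.28. Exposed animals 1 to 5 read 11.43, 11.34, 11.16, 11.74 and 11.46. Control animal 5 stood above every other liver and control animal 1 was lowest, while control animal 2 read 11.46, next to the mean of its group (11.47 ± 0.50, SD, n = 5). The second probe set ranged from 9.50 in control animal 1 to 10.67 in control animal 5. The probe sets moved together across animals with group means removed (Pearson's r = 0.98, exact permutation p = 2.08e-04, adjusted 4.17e-04; Spearman's rho = 0.92, p = 0.00271, adjusted 0.00542). Without the 2 animals farthest from the median r was 0.98. Their differences between groups had opposite signs, -0.04 and 0.07, each well within its SE of 0.20 and 0.19.

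Pdk4, Angptl4 and Vnn1 act outside the oxidation pathway itself. Pdk4 codes for a kinase that shuts the pyruvate dehydrogenase complex and so spares glucose during fasting. Its brighter probe set read 9.13, 8.31, 8.90, 8.21 and 9.35 in control animals 1 to 5. It read 8.95, 9.01, 8.21, 8.73 and 8.76 in exposed animals 1 to 5. Low values came from control animals 2 and 4 and exposed animal 3, and the highest again from control animal 5. The dimmer probe set ranged from 7.46 to 8.09, with its highest values in control animal 1 and exposed animal 2 and control animal 5 at 7.83. The probe sets correlated at r = 0.77 (exact permutation p = 0.00646, adjusted 0.00646) and rho = 0.81 (p = 0.00639, adjusted 0.00639), and at r = 0.75 without the 2 farthest animals. Their group differences were -0.05 ± 0.22 and 0.03 ± 0.14 (SE).

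Angptl4 codes for a secreted inhibitor of lipoprotein lipase that keeps circulating triglycerides from being cleared. Control animals 1 to 5 read 10.55, 9.37, 10.32, 10.76 and 10.93. Exposed animals 1 to 5 read 10.14, 10.54, 9.99, 10.78 and 9.19. The lowest livers were exposed animal 5 and control animal 2, each well below the rest of its group. The gene had an SD within groups of 0.61, above that of 99.5% of probe sets, and the largest difference of the members, -0.26 ± 0.31 (SE).

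Vnn1 codes for pantetheinase, which splits pantetheine, a building block of coenzyme A, into pantothenate and cysteamine. Control animals 1 to 5 read 8.96, 8.01, 8.64, 8.24 and 9.40. Exposed animals 1 to 5 read 8.41, 8.42, 8.19, 8.84 and 8.23. Control animals 5 and 1 were the highest and control animal 2 the lowest of all 10. The difference was -0.23 ± 0.22 (SE), with means of 8.65 ± 0.56 in controls and 8.42 ± 0.25 in exposed rats (SD, n = 5 each).

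Acot1, a cytosolic thioesterase that releases free fatty acids from acyl-CoA, was measured near the bottom of the scale. Its values ran from 2.91 to 3.25 in controls and from 3.02 to 3.30 in exposed rats, and its mean lay at the 6.37th percentile of all probe sets. Of the 10 member probe sets, 9 had a mean above the median probe set (5.47), Acot1 being the exception. Whether its probe set follows the transcript at this level is not known, and its difference of 0.06 ± 0.08 (SE) is given as measured. The remaining members lay between the 80.9th and 97.9th percentiles.

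For a view of the DNA in front of member genes that vary between livers, the 250 bases before the start site of Pdk4 and Ehhadh are shown, from RefSeq's GRCr8 assembly. These are the members above the median level whose start site in the RefSeq promoter table is also the end of the gene model. Capitals mark a CCAAT box (CCAAT or its reverse complement ATTGG) and a GC box (GGGCGG or CCGCCC), both common promoter elements.
Pdk4, minus strand, chr4:34568330-34568579: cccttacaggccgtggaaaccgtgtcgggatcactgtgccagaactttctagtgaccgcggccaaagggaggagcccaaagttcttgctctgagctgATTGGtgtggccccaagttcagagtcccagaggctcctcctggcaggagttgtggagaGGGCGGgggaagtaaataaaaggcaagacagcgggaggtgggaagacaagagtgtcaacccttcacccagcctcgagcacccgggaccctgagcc
Ehhadh, plus strand, chr11:92746159-92746408: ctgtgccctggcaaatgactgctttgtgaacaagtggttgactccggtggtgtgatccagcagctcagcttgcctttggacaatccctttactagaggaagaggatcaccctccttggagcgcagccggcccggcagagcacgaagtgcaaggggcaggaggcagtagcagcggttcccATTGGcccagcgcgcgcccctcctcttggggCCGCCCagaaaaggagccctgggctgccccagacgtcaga
Each holds 1 CCAAT box, 153 bases before the start in Pdk4 and 71 in Ehhadh, and 1 GC box, at 95 and 40 bases. Promoters of 6 members were matched in the table. Over both strands, CCAAT was found in 3 of the 6 and in 34.0% of 33469 windows of the same length, and GGGCGG in 4 of the 6 and in 30.5%. The letters AGGTCA, the site of a single nuclear receptor, were in 0 of the 6 and in 14.1% of all windows. The DR1 element, a direct repeat of those letters that PPAR-alpha and RXR bind together, was in 0 of the 6 and in 0.0508% of all windows. These matches describe letters in these windows only.

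The comparison of exposed with control rats asks whether the effluent altered expression in liver. Limma called 0 of the 10 member probe sets (adjusted p under 0.05), against 0% of all 31042, and 0 had an unadjusted p under 0.05, against 5.46%. The groups were separate, with no overlap, for 0 member probe sets and for 0.892% of all. Taking each gene by its brighter probe set, 7 of 8 were lower in exposed livers with a median difference of -0.09, where all named genes had 6978 higher, 7239 lower and a median of -0.002. Limma's adjusted p values of the members were between 0.880 and 0.986. The 95% intervals leave room for moderate changes. In exposed over control livers they ran from 0.643-fold to 1.35-fold for Cyp4a1, from 0.719-fold to 1.31-fold for Cpt1a, from 0.521-fold to 1.33-fold for Angptl4 and from 0.852-fold to 1.02-fold for Eci2.

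The direction of these small differences turned on single animals. Without control animal 5, only 3 of 8 genes were lower in exposed livers and the median difference was 0.04. Without control animal 2, 7 of 8 were lower and the median was -0.21. Control animal 5, the highest, and control animal 2, the lowest, thus pulled the group difference in opposite ways. Without both, a setting chosen after seeing the data, 6 of 8 were lower with a median of -0.11. Cyp4a1 went from -0.10 to 0.10 without control animal 5 and to -0.32 without control animal 2. Vnn1 went to -0.04 and to -0.39 without the same animals. Angptl4 moved to -0.03 without exposed animal 5 and to -0.52 without control animal 2. Eci2 was the least dependent, at -0.13 to -0.08 without each animal in turn, and its smallest limma adjusted p was then 0.783. Acot1, Angptl4, Vnn1 and Eci2 kept the sign of their difference without each of the 10 animals, and Cyp4a1, Cpt1a, Pdk4 and Ehhadh did not.

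**Figure D2:**
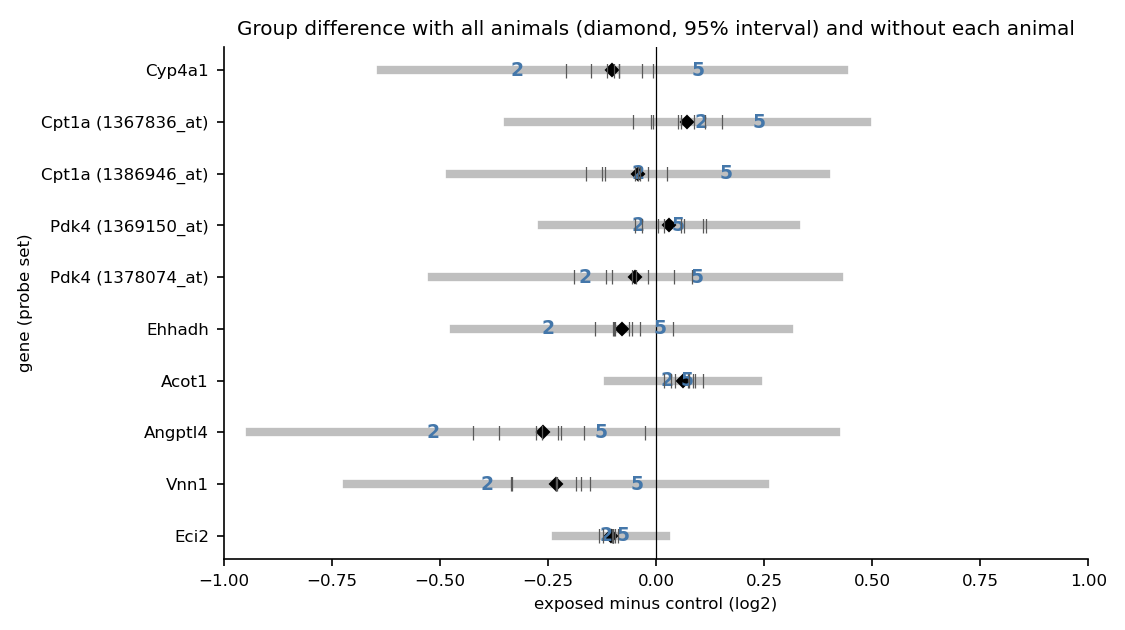
Exposed minus control on the log2 scale (horizontal axis) for the 10 probe sets (vertical axis), with all animals (diamond, grey bar for the 95% interval) and without each animal in turn (ticks). The blue digits 2 and 5 mark the value without that control animal. For Cyp4a1 the value is -0.32 without control animal 2 and 0.10 without control animal 5, and every 95% interval holds 0.

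Control animal 5 also had the highest ratio of 3′ to 5′ signal, a sign of RNA quality taken from the control sets for Gapdh and beta-actin. A high ratio means weak 5′ relative to 3′ signal and is not a mark of better RNA. Its log2 ratio was 0.735, with the other arrays between 0.494 and 0.626. The groups did not differ in this ratio by the test used (0.61 ± 0.08 in controls, 0.56 ± 0.04 in exposed rats, SD, n = 5 each, two-sided exact permutation p = 0.278). With the ratio as a covariate, 2 of 8 members were lower in exposed livers and the median difference was 0.01. Angptl4 was then at 0.01 and Cpt1a at 0.17. Correlations of the members with the ratio are given with the shared variation.

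Variation between animals was then described with the mean of each group removed, so that no group difference enters. The SD within groups of Cyp4a1, Ehhadh, Angptl4, Vnn1, both probe sets of Cpt1a and the brighter one of Pdk4 lay between the 97.1st and 99.5th percentiles of all probe sets. Acot1 lay at the 50.5th percentile and Eci2 at the 6.70th. The median probe set had an SD of 0.13, Cyp4a1 0.48, Vnn1 0.43 and Cpt1a 0.39. Control rats had the larger SD on 9 of the 10 probe sets, where 55.0% of all probe sets did. Among the 9, the SDs were nearly equal for Angptl4 (0.613 against 0.612) and Eci2 (0.0706 against 0.0691), and both probe sets of Cpt1a are counted. On 5 of the 10, with Cyp4a1 (0.61 against 0.29) and Vnn1 (0.56 against 0.25) among them, the control SD was over 1.5 times that of exposed rats, as on 28.7% of all. Control animals 2 and 5 lie in that group.

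The same animals tended to be high or low across genes. Control animal 5 was above the mean of its group for 8 of 8 genes and control animal 2 for 0 of 8. Exposed animal 4 was above for 8 of 8 and exposed animal 3 for 1 of 8. For Pdk4, exposed animal 4 was above by only 9.71e-05, in effect at the mean of its group. On the dimmer probe set of Pdk4 it read 7.64, below the exposed mean of 7.78. The principal axis of variation of the standardised values carried 58.1% of their variance and the next 16.3%. Control animals 2 and 5 weighed most on the principal axis, at -0.60 and 0.61, with the other animals between -0.17 and 0.35. All 8 genes, with Acot1 near the bottom of the scale among them, had a positive weight on the principal axis, from 0.24 for Cpt1a to 0.44 for Vnn1. On the next axis Cpt1a (-0.67) and Eci2 (-0.53) stood opposite Acot1 (0.39). Cpt1a itself parted control animals 1 and 5. Both were high for Cyp4a1, Vnn1 and Pdk4, but for Cpt1a control animal 1 was the lowest of all livers and control animal 5 the highest.

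**Figure D3:**
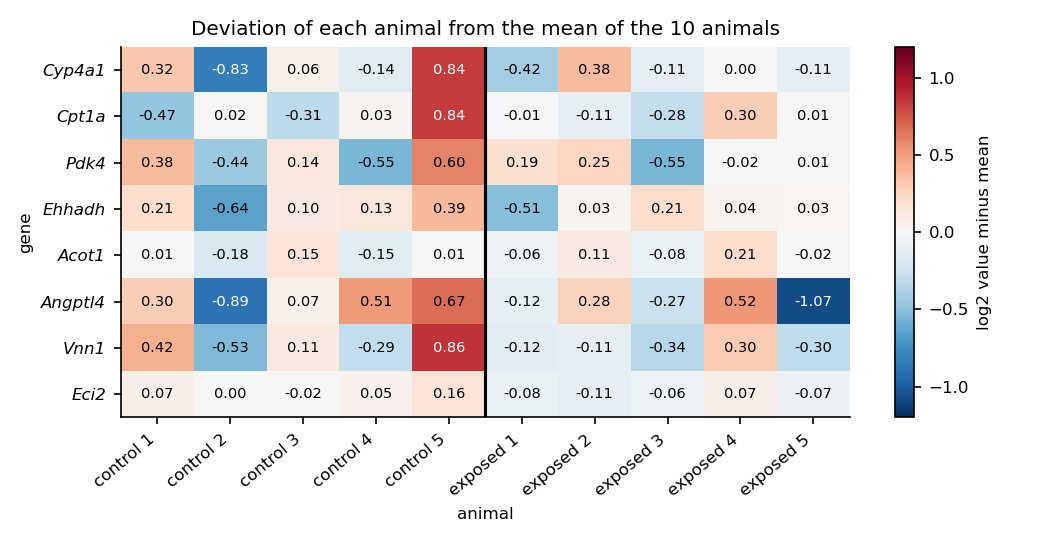
Log2 value of each animal (columns, controls left of the line) minus the mean of the 10 animals for the 8 genes (rows), red above and blue below the mean. The column of control animal 5 is above the mean for 8 of 8 genes, and that of control animal 2 below it for 6 of 8.

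Correlations were computed for the 28 pairs of genes over the 10 animals. Pearson's r was above 0 for 28 of 28 and above 0.5 for 15, with a median of 0.54. Pairs with Acot1 are among both counts. Its values lay near the bottom of the scale, and whether they follow the transcript is not known. The members' average used below also includes Acot1. Over all pairs of named genes, 50.0% were above 0 and 10.0% above 0.5. By exact permutation of animals within groups, 8 pairs had an unadjusted p under 0.05 with Pearson's r and 7 with Spearman's rho, of which 4 were in both. After Benjamini-Hochberg adjustment over the 28, 0 passed with either. The highest was Cyp4a1 with Ehhadh, at r = 0.84 (exact permutation p = 0.00896, adjusted 0.151) and rho = 0.65 (p = 0.0806, adjusted 0.251). Without the 2 animals farthest from the median of Cyp4a1, which were control animals 2 and 5, r was 0.57. Cyp4a1 with Vnn1 had r = 0.83 (exact permutation p = 0.0165, adjusted 0.151), rho = 0.87 (p = 0.00743, adjusted 0.179), and r = 0.45 without those animals, so it rested in part on them. Pdk4 with Vnn1 had r = 0.81 (exact permutation p = 0.0194, adjusted 0.151) and rho = 0.77 (p = 0.0314, adjusted 0.179). Here the farthest animals were control animal 4 and exposed animal 3, and r without them was 0.83. Without control animals 2 and 5 it was 0.67, and without control animal 5 alone 0.73. Cpt1a with Eci2 had r = 0.71 (exact permutation p = 0.0307, adjusted 0.151), rho = 0.50 (p = 0.169, adjusted 0.339), and r = 0.77 without control animals 1 and 5. It was 0.45 without control animal 5 alone and 0.86 without control animal 1 alone. With control animals 2 and 5 both left out, 20 of 28 pairs were above 0 and 7 above 0.5, and the median r was 0.24. With the RNA quality ratio regressed out over all 10 animals, 24 pairs were above 0 and 12 above 0.5, and the median r was 0.44.

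**Figure D4:**
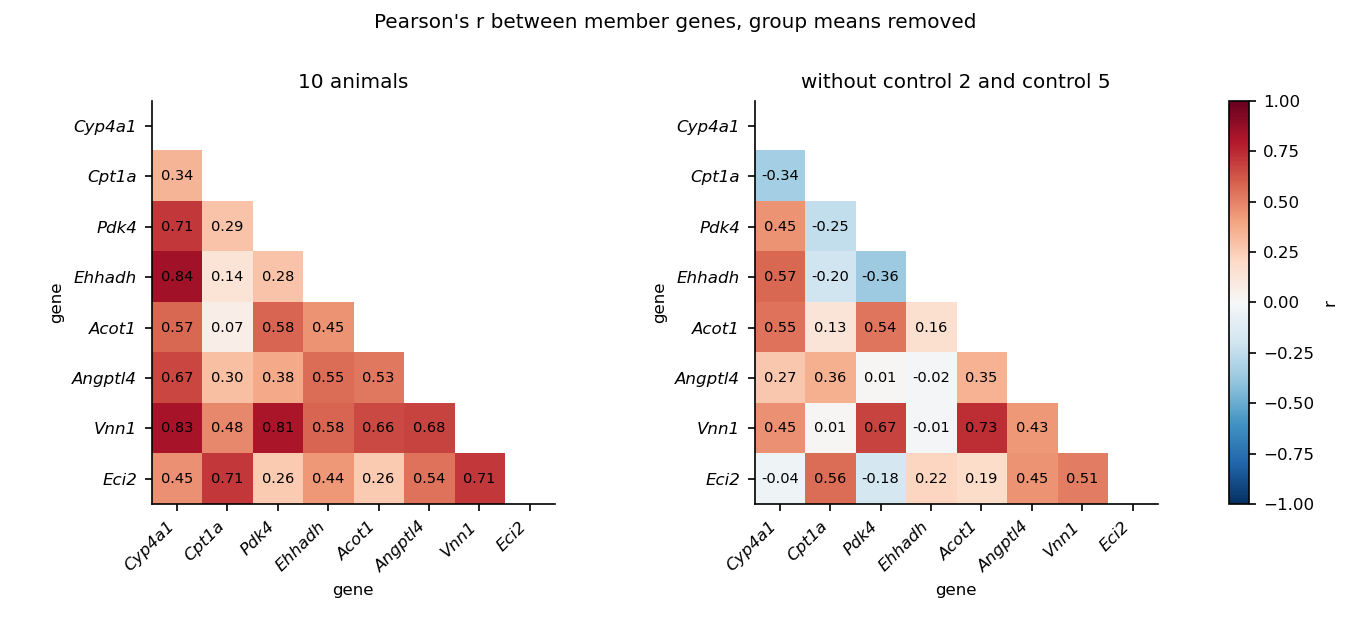
Pearson's r between the 8 genes (both axes) with group means removed, over 10 animals (left) and without control animals 2 and 5 (right), red for positive and blue for negative. All 28 values are positive on the left, from 0.07 to 0.84, and 20 are positive on the right.

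The receptor gene itself and other candidates for a common thread were set beside the members. Ppara, coding for PPAR-alpha, averaged 5.91 ± 0.08 in controls and 6.01 ± 0.25 in exposed rats (SD, n = 5 each), with a difference of 0.10 ± 0.11 (SE). Control animals 2 and 5, at the opposite ends for the members, read 5.84 and 5.83. Dbp, a clock output regulator whose level follows the time of day, ranged from 5.80 to 9.34 in controls and from 6.79 to 9.47 in exposed rats. Of 24 relations of the 8 members with Ppara, Dbp and the RNA quality ratio, 1 had an unadjusted p under 0.05 and 0 passed after adjustment. This was Cpt1a with Dbp, at r = 0.67 (exact permutation p = 0.0495, adjusted 0.685) and rho = 0.78 (p = 0.0216, adjusted 0.518), and r = 0.28 without control animals 1 and 5, on which it rested. With the RNA quality ratio, Cpt1a had the highest Pearson's r, at r = 0.72 (exact permutation p = 0.0772, adjusted 0.685) and rho = 0.42 (p = 0.306, adjusted 0.919), and r = -0.10 without the same animals. Angptl4 had the highest Spearman's rho with it, 0.67 (exact permutation p = 0.0502, adjusted 0.603), with r = 0.58 (p = 0.111, adjusted 0.685) and r = 0.47 without control animal 2 and exposed animal 5.

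Among 9659 other genes above the median level, 6 followed the average of the members' standardised values most closely over the 10 animals, as a description without test. Ech1, a dienoyl-CoA isomerase, had r = 0.98, and Acot4, a thioesterase of peroxisomes, had r = 0.98. Ech1 read 10.32, 9.38, 10.03, 10.02 and 11.01 in control animals 1 to 5 and 9.88, 10.00, 9.89, 10.38 and 9.87 in exposed animals 1 to 5. Control animals 5 and 2 were its extremes, as they were of the members' average by which it was picked. Gde1, a phosphodiesterase, had r = 0.95, Slc25a20, the carrier of acylcarnitines into mitochondria, 0.94, Cyp4a3, a close relative of Cyp4a1, 0.92, and Hsdl2, a peroxisomal dehydrogenase-like protein, 0.90. Without control animals 2 and 5 these 6 values were between 0.72 and 0.95, though the genes were picked with all 10 animals. The lowest were Snap23, a protein of membrane fusion, at -0.99, and Ptprm, Slc25a45, Eif2s3, Armc1 and Styx, between -0.94 and -0.91. These 6, picked in the same way, were between -0.96 and -0.69 without the same animals.

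The other genes of the programme were taken from lists by role. In none of the lists did limma call a gene at an adjusted p under 0.05. Together the lists of PPAR-alpha partners, targets and fat oxidation measured 80 genes besides the members, of which 29 were higher and 51 lower in exposed livers with a median of -0.04. Without control animal 5 the lower genes numbered 35 and the median was 0.01. Unadjusted limma p values under 0.05 were given by 2 of the 80, against 739 of all 14217 named genes. The 2 were Lpin1 (-0.38 ± 0.17, SE, and -0.24 without control animal 1) and Cyp4f4 (-0.24 ± 0.09). Lpin1 is a phosphatidate phosphatase that also acts as a coactivator, and Cyp4f4 is a fatty acid hydroxylase. Single animals weighed on these genes as on the members. Of 39 genes named from the lists, 5 turned sign without 1 of the animals, and 25 kept their sign but moved by over 1.5 times.

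For ketone body synthesis, 4 of 6 listed genes were measured and 4 of 4 were higher in exposed livers, with a median of 0.09. Bdh1, which reduces acetoacetate to hydroxybutyrate, differed by 0.05 ± 0.06 (SE), Acat1 by 0.10 ± 0.08, and the monocarboxylate carriers Slc16a1 and Slc16a6 by 0.10 ± 0.09 and 0.08 ± 0.10. None had an unadjusted limma p under 0.05.

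Mitochondrial beta-oxidation was represented by 16 of 16 genes, 12 lower and 4 higher, with a median of -0.05. Without control animal 5 the count was 8 lower. Eci1, the mitochondrial counterpart of Eci2, differed by -0.33 ± 0.28 (SE), and by -0.13 without control animal 5. Acadm and Hadha, enzymes of the oxidation spiral, differed by -0.06 ± 0.07 and -0.04 ± 0.08, Acaa2 by -0.13 ± 0.08 and Acads by -0.10 ± 0.06. Across animals, 12 of the 16 had r above 0.5 with the average of the members, against 8.86% of other genes, with Eci1 at 0.88 and Hadha at 0.81. Without control animals 2 and 5 it was 7 of 16, against 15.5%.

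For oxidation in peroxisomes, 12 of 15 genes were measured, 9 lower and 3 higher with a median of -0.12, which was -0.01 without control animal 5. Decr2, a dienoyl-CoA reductase, differed by -0.28 ± 0.14 (SE) and by -0.15 without control animal 1. Hacl1 differed by -0.26 ± 0.14, by -0.16 without exposed animal 1, and Hsd17b4, another bifunctional enzyme, by -0.13 ± 0.07. Of the 12, 5 had r above 0.5 with the members' average, such as Hsd17b4 at 0.90, and Hacl1 was at 0.06.

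Omega-oxidation, the route of Cyp4a1, had 8 of 9 genes measured, 6 lower and 2 higher, with a median of -0.10. Cyp4a3 read 10.03 to 12.07 in controls and 10.42 to 11.28 in exposed rats, a difference of -0.10 ± 0.33 (SE). It turned to 0.16 without control animal 5. Cyp4a8 differed by -0.62 ± 0.29 and Cyp4f5 by -0.10 ± 0.08. The Cyp4a genes are close relatives, as are Acot1 and Acot2, and how far their probe sets detect each other's transcripts was not tested, since probe sequences were not used here.

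Genes of fatty acid uptake and activation were measured for 12 of 12, 7 lower and 5 higher with a median of -0.03, which turned to 0.05 without control animal 5, 0.03 without control animal 1 and 0.01 without exposed animal 1. Fabp1, the abundant fatty acid binding protein of liver, differed by 0.04 ± 0.05 (SE) and the transporter Cd36 by 0.18 ± 0.20. Slc27a5 differed by -0.23 ± 0.12, Acsl5 by 0.18 ± 0.10, Slc27a4 by 0.07 ± 0.06 and the mitochondrial thioesterase Acot2 by -0.05 ± 0.18. Acot2 followed the members' average at r = 0.83, while Fabp1 was at 0.11.

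Other targets of PPAR-alpha were measured for 16 of 16, 9 lower and 7 higher with a median of -0.02, which ran from -0.05 without exposed animal 1 to 0.04 without control animal 4. Fgf21, the fasting hormone released by liver, had r = 0.40 with the members' average. It was highest in control animal 4 (7.88) and exposed animal 4 (7.90), at 7.06 in control animal 5 and at 6.29 in control animal 2. Its difference was -0.17 ± 0.41 (SE). Plin2, a coat protein of lipid droplets, differed by -0.07 ± 0.12, Mgll by -0.21 ± 0.10, Fads2 by 0.26 ± 0.13 and Gpd1 by 0.14 ± 0.08. Of the receptor's partners and cofactors, 12 of 14 were measured, 8 lower and 4 higher, with a median of -0.04, which was 0.02 without control animal 5. Rxra differed by 0.04 ± 0.07, Ppargc1a by 0.16 ± 0.10 and Crebbp by -0.16 ± 0.11.

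Genes that rise with fasting were measured for 11 of 13 listed symbols, without G6pc1 and G6pc. They were lower for 8 and higher for 3, with a median of -0.10. The median was -0.01 without exposed animal 2, -0.02 without exposed animal 5 and -0.03 with all probe sets of a gene averaged. Pck1, the enzyme that starts glucose synthesis, differed by -0.10 ± 0.10 (SE), Got1 by -0.27 ± 0.18 and Sds by -0.55 ± 0.19, with an unadjusted limma p of 0.0135 for Sds. In step with the members' average, 1 of the 11 (9.09%) had r above 0.5, near the 8.86% of other genes. Genes of fat synthesis, which rise with feeding, were higher in exposed livers for 11 of 11 measured of 12, with a median of 0.25. Acly differed by 0.32 ± 0.14, Elovl6 by 0.33 ± 0.16 and Pnpla3 by 0.87 ± 0.41. Elovl6 differed by 0.17 without control animal 4 and Pnpla3 by 0.48 without exposed animal 1. Against the members' average, 3 of these 11 had r below -0.5, with Pnpla3 at -0.70 and Acly at -0.54, and 1, Me1, had r above 0.5, with a median of -0.30. Without control animals 2 and 5, 8 of the 11 had r below -0.5 and 0 above 0.5, with a median of -0.58. The share of all genes with r below -0.5 is not given here, so these counts cannot be set against it.

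**Figure D5:**
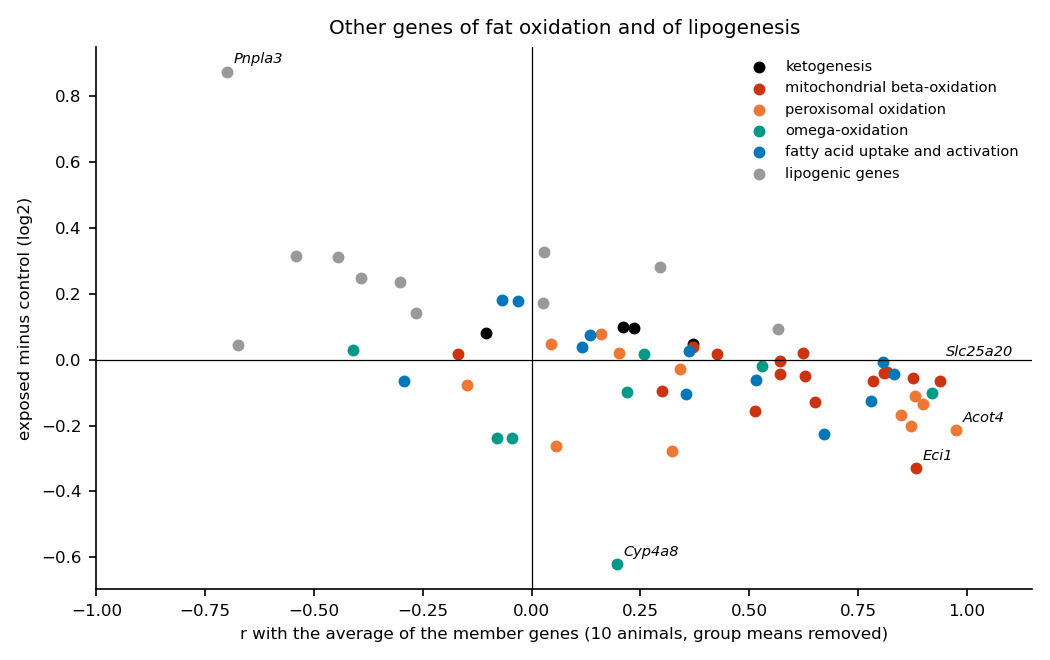
Genes of 6 lists by their r with the average of the 8 member genes over 10 animals (horizontal axis) and their difference of exposed minus control on the log2 scale (vertical axis). Mitochondrial genes (red) gather on the right, with 12 of 16 above 0.5, and lipogenic genes (grey) lie above 0 on the vertical axis for 11 of 11.

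Markers of hepatocytes were at the top of the scale in every liver, with means of 14.1 to 14.2 over the 7 measured of 8. Their small deviations ran opposite to the members' average for 7 of 7 (median r = -0.40), and the median r was -0.08 without control animals 2 and 5. Fat tissue and muscle also make Angptl4 and Pdk4. The 6 muscle markers averaged 3.32 to 3.47 per animal, all below the median probe set. Of the 5 fat markers, Adipoq (mean 4.42), Lep (4.27) and Plin1 (4.93) were below it, while Fabp4 (5.75) and the lipid droplet gene Cidec (9.41) were above it, and the list averaged 5.57 to 5.88. Markers of Kupffer cells, the liver's macrophages, were measured for 6 of 8 and ran opposite to the members for 6 of 6 (median r = -0.39), and 6 of 6 were higher in exposed livers. Their mean per animal was 7.81 to 9.07 in controls and 8.15 to 9.11 in exposed rats, lowest in control animal 5 and, among controls, highest in control animal 2. None of the 6 was near the bottom of the scale, Cd163 having the lowest mean, 7.03. Without control animals 2 and 5 the median r was 0.45. Lymphocyte markers, 7 of 8 measured, averaged 4.72 to 5.18 per animal. The part of these cells in the members' values was not tested.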

How the data were processed

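RNA from the liver of each rat was measured on its own Affymetrix array. The authors deposited log2 values, made with RMA in R 2.8.1 according to the submitters' processing notes and normalized between arrays. Values ran from 2.19 to 15.0, array medians from 5.43 to 5.49, and 0 pairs of arrays were identical. Precision is limited by the number of arrays.

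After leaving out 57 control sets, 31042 probe sets remained, of which the platform annotation gives 20826 a single gene, 436 several and 9780 none. Entrez numbers matched 20758 to RefSeq genes (GRCr8). Where a gene has several probe sets, the brightest stands for it.

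Groups were compared with limma 3.58.1 (R 4.3.3; lmFit and eBayes), p values being two-sided and Benjamini-Hochberg adjusted over every probe set tested. The fit was checked on simulated data. Correlations used deviations from group means, with all 14400 orders of animals within groups (numpy 2.4.6, scipy 1.17.1). Genes named are the members, up to 3 per list with the smallest p, a set of pathway genes, and the 6 most and 6 least like the members. Members and lists were chosen with earlier results of these data known. Same-numbered animals of the groups did not deviate together (correlations of -0.07 to 0.09), so the numbers were not used as pairs. Alternatives were median centring, quantile normalization, removal of dim probe sets, a replicate block, array weights, the RNA quality ratio, a trended prior, averaged probe sets and leaving out animals.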

Additional observations from a re-analysis of the deposited data

Results flagged for a closer look

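In 10 of 120 sets of 5 values, 1 animal stood far from the other 4, judged by its distance to the closest of them relative to their full spread; chance flags about 1 in 20, or 6 here. Among members, Ehhadh read 10.27 in control animal 2 (others 11.02 to 11.30) and 10.40 in exposed animal 1 (others 10.94 to 11.12). Eci2 read 11.16 in exposed animal 4 (others 10.98 to 11.03). Exposed animal 4 also read 10.38 for Ech1 (others 9.87 to 10.00) and 10.95 for the lipogenic gene Acly (others 11.48 to 11.56). Exposed animal 2 read 11.26 for Bdh1 (others 11.43 to 11.50) and 11.12 for Fads2 (others 11.52 to 11.69). Control animal 5 read 9.57 for Acads (others 9.42 to 9.46). Control animal 4 read 10.58 for Cyp4f4 (others 10.34 to 10.41) and 14.09 for Fabp1 (others 14.16 to 14.18).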

How the results depend on the processing

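The count of probe sets called by limma over the whole array was 0 under every alternative run except without exposed animal 1, where it was 1, the non-member Mx2, named after its value was seen (0 to 1 without each animal in turn). With the replicate number as a block, 0 were called. This block cannot change the differences themselves, such as -0.10 for Cyp4a1, because each number occurs once in each group. Member differences turned sign without single animals, with ranges of -0.32 to 0.10 for Cyp4a1, -0.16 to 0.16 and -0.055 to 0.24 for the brighter and dimmer probe set of Cpt1a, -0.19 to 0.10 and -0.049 to 0.12 for those of Pdk4, and -0.25 to 0.037 for Ehhadh. With array weights Cyp4a1 was at 0.0031 and the brighter Pdk4 set at 0.049. With the RNA quality ratio as a covariate, Cyp4a1 was at 0.081, Cpt1a at 0.17, Pdk4 at 0.011, Ehhadh at 0.014 and Angptl4 at 0.011, by their brighter sets. Without both control animals 2 and 5, chosen after seeing the data, Cpt1a was at 0.23 and the dimmer Pdk4 set at -0.037. Pairs of members with r above 0.5 numbered 15 in all animals, 8 without control animal 2 (8 to 19 without each animal) and 7 without both. The cause was not tested.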

Other observations

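A pair of probe sets that members share with a relative was kept apart. The one for Eci3 and Eci2 averaged 11.35 ± 0.15 in controls and 11.30 ± 0.09 in exposed rats, a difference of -0.05 ± 0.08 (SE; SD and n = 5 for the means). The one for Acot2 and Acot1 averaged 5.29 ± 0.22 and 5.21 ± 0.07, a difference of -0.08 ± 0.09. It read 5.55 in control animal 5 and 4.99 in control animal 2, the highest and lowest of the 10 livers. The set for Eci3 and Eci2 was also lowest in control animal 2 (11.10). Its highest value was in control animal 1 (11.48), with control animal 5 at 11.39.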
